A study of Mus musculus with 10 samples.

Results

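Genome-wide association studies of late-onset Alzheimer's disease have named many risk genes, and 37 of their mouse orthologs were followed here in the cortex of 5XFAD mice with and without a neuronal deletion of Idol. The members were taken by gene symbol, and the list was made with earlier results of these data known. Each symbol matched 1 of the 53700 gene identifiers counted. Of the 37 members, 32 had more than 10 reads over the 10 libraries and were tested, among 19268 genes tested in all. All 10 libraries came from the cortex of female mice aged 4 months that carried the 5XFAD transgenes, mutant human genes from inherited forms of the disease under mouse Thy1 sequence. Of these, 5 libraries were labelled 5XFAD;Neu cKO, in which floxed Idol (Mylip) meets Cre from a Camk2a promoter. The other 5 were 5XFAD controls with WT in their titles, which a figure legend of the paper defines as wild type for Idol. The sources used here do not state whether the controls carried floxed Idol or Cre. The Camk2a promoter is active mainly in excitatory neurons of the forebrain, so the design is meant to leave Idol in glia, vessels and most inhibitory neurons. Which cells kept Idol cannot be read from these bulk libraries.

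IDOL is a ubiquitin ligase that marks the LDL receptor and its relatives for degradation, and these receptors take up lipoproteins that carry APOE. Many products of Alzheimer risk genes act in endocytosis, in lysosomes and lipid transport, or in the innate immune response of microglia, the resident macrophages of the brain. Others act on the cytoskeleton, on tau or on RNA. Association marks a stretch of genome and not a gene, so that for several members the name given to the locus is the nearest or most likely gene and no more.

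QuantSeq libraries give reads near the 3′ end of a transcript, so counts scaled to the same total in every library (CPM) can be compared between genes without dividing by length. The libraries held 4320504 to 7466192 reads on genes in 5XFAD and 5148499 to 7246659 in 5XFAD;Neu cKO. The targeted gene, Mylip, was read at 14.8 ± 4.90 CPM in 5XFAD;Neu cKO and at 11.2 ± 2.27 CPM in 5XFAD, so the label was not matched by a lower count (SD, n = 5 per group; log2 fold change 0.39, 95% interval −0.10 to 0.89, edgeR adjusted p = 0.777). By quantitative PCR of cortex, the paper reports significantly lower Idol mRNA in its neuronal knockout mice than in their controls. The gene-level count does not show whether the transcripts lacked the deleted part, so it cannot decide whether Idol was deleted. Group names below are those of the labels.

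None of the 32 tested members passed an adjusted p of 0.05 in edgeR's quasi-likelihood test or in DESeq2, which gave no adjusted p for 19 of them. In edgeR, 42 of all 19268 genes passed (0.218% of all genes tested, with 0.161% lower and 0.0571% higher). Log2 fold changes, given throughout as 5XFAD;Neu cKO minus 5XFAD, ran from −0.78 for Ms4a6d to 0.53 for Usp6nl, and the adjusted p from 0.471 to 0.998. The estimate was below 0 for 14 members and above 0 for 18, with a median of 0.03 beside −0.00056 over all genes. At an unadjusted p under 0.05 there were 3 members, or 9.38% of those tested, beside 7.95% of all genes, so the share was close to that of the background. These 3, Celf1, Usp6nl and Spred2, all had the higher mean in 5XFAD;Neu cKO. Of all genes, 3.94% met the same p in that direction and 4.01% in the other. Of 10 fits that left out 1 library, Celf1 met that p in 9, Usp6nl in 7 and Spred2 in 8. Without 5XFAD replicate 5 only Celf1 of the 3 met it, and without 5XFAD replicate 2 Celf1 and Spred2 did not. The ranges of the groups overlapped for each of the 32 members. Of all genes, 1.30% had groups that did not overlap, a share at which a set of 32 genes can easily hold none.

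**Figure D1:**
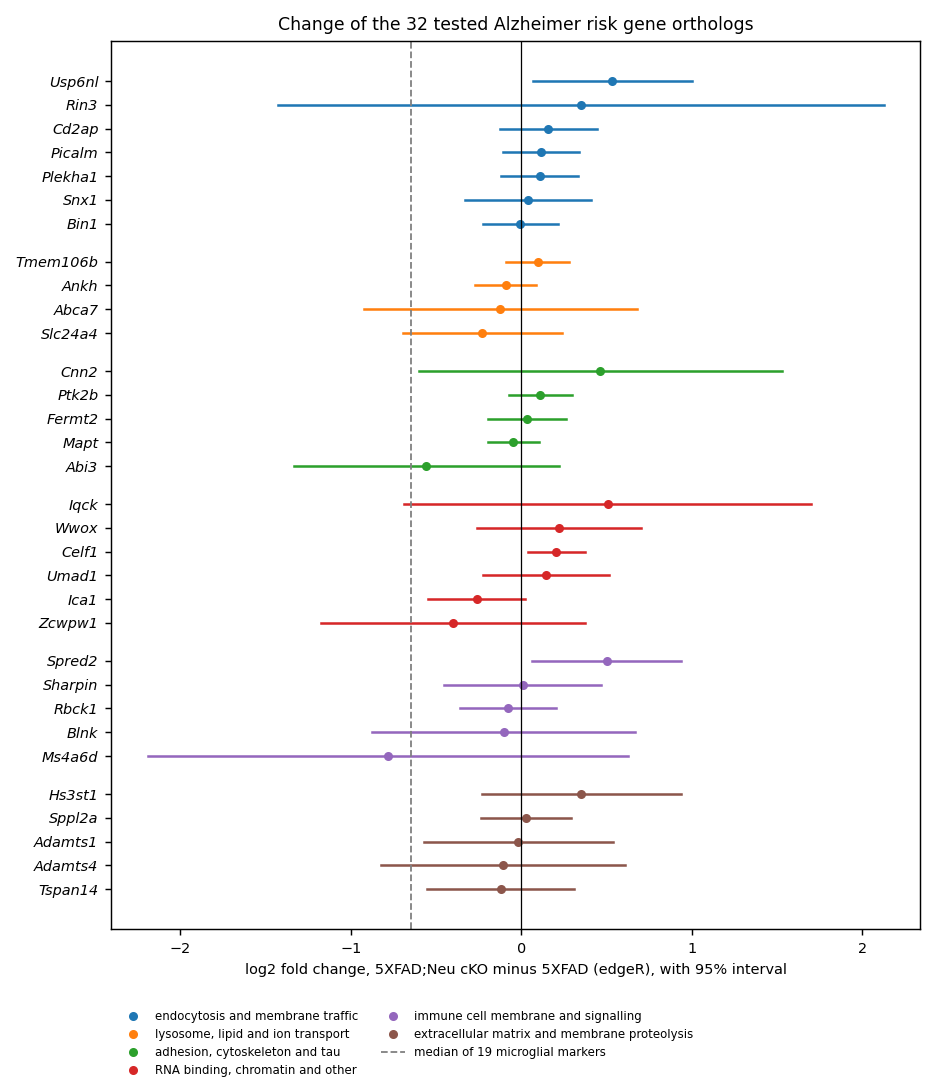
Log2 fold change of each tested member (point, 5XFAD;Neu cKO minus 5XFAD, edgeR, 5 libraries per group) with its 95% interval (line), coloured by role, with the median of 19 microglial markers as a dashed line at −0.65. The intervals of Usp6nl, Celf1 and Spred2 lie above 0, that of every other member holds 0, and 23 of the 32 intervals lie wholly to the right of the dashed line.

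The intervals say how large a change these libraries could have hidden. They lay within 1 on the log2 scale, a 2-fold change either way, for 26 of the 32 members (81.2%, beside 53.6% of all genes tested), and within 0.5 for 14 (43.8%, beside 27.3%). Members were better measured than the average gene, with a median level of 18.8 CPM against 7.97 CPM. The 13 members at 40 CPM or more had standard errors of 0.075 to 0.143, and 12 of their intervals lay within 0.5. The 10 members between 9 and 40 CPM had standard errors of 0.184 to 0.290, all with intervals within 1. Of the 9 members under 9 CPM only 3 had an interval within 1, with standard errors of 0.357 to 0.886. This last set holds Abca7, Abi3, Adamts4, Blnk, Cnn2, Iqck, Ms4a6d, Rin3 and Zcwpw1, and for 6 of the 9 the interval did not exclude a 2-fold change.

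**Figure D2:**
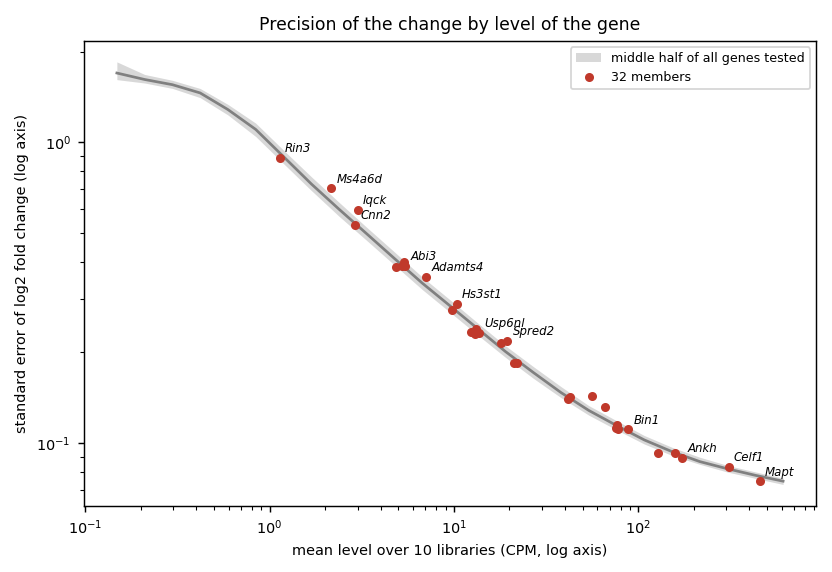
Standard error of the log2 fold change (y, log axis) against the mean level over 10 libraries in CPM (x, log axis) for the 32 tested members (red points), with the median and middle 50% of all genes tested at the same level in grey. The members follow the grey line, from 0.886 for Rin3 at 1.14 CPM down to 0.075 for Mapt at 455 CPM.

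Genes of endocytosis and membrane traffic formed the group with the most estimates on one side, 6 of 7 above 0 with a median of 0.12, and none was called. Usp6nl, which switches off the endosomal GTPase Rab5, was read at 12.6, 11.7, 14.3, 8.20 and 8.98 CPM in 5XFAD replicates 1 to 5. In 5XFAD;Neu cKO replicates 1 to 5 it was read at 16.8, 17.3, 19.0, 17.2 and 10.9 CPM. Replicates 1 to 4 of 5XFAD;Neu cKO thus stood above every 5XFAD library, and replicate 5 fell among them. The means were 16.2 ± 3.10 and 11.2 ± 2.53 CPM, a log2 fold change of 0.53 (SE 0.23, 95% interval 0.07 to 1.00), and edgeR's adjusted p was 0.529 (unadjusted 0.0252, exact two-sided permutation p = 0.0317, n = 5 per group). When 1 library was left out, the estimate lay between 0.44 (without 5XFAD replicate 4; edgeR, unadjusted p = 0.0746) and 0.65. Its relative Rabgap1, another GTPase-activating protein with the same kind of catalytic domain, had a log2 fold change of 0.09.

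Rin3, which switches Rab5 on, had 69 reads in all and an interval of −1.43 to 2.13. Bin1, a protein that bends membranes and was the most abundant gene of the group, was read at 92.2, 93.6, 83.0, 74.7 and 95.8 CPM in 5XFAD and at 96.1, 95.1, 79.8, 98.8 and 68.4 CPM in 5XFAD;Neu cKO. The groups lay on top of each other, with means of 87.9 ± 8.82 and 87.6 ± 13.1 CPM and an interval of −0.23 to 0.22. Its relatives Amph, Bin3 and Bin2 had log2 fold changes of 0.06, −0.03 and −0.72, the last on a mean of 2.86 ± 1.86 CPM in 5XFAD. Picalm, an adaptor of clathrin-coated vesicles, was at 0.12 (interval −0.11 to 0.34), and Cd2ap, a scaffold between receptors and actin, at 0.16 (−0.13 to 0.45). The estimate of Cd2ap was 0.018 without 5XFAD;Neu cKO replicate 5 and 0.28 without 5XFAD replicate 5. Plekha1, which binds membrane phosphoinositides, was at 0.11, and Snx1, a sorting nexin of the retromer pathway, at 0.04.

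The 4 genes of lysosome, lipid and ion transport had 3 estimates below 0 and a median of −0.11. Ankh, an exporter of ATP and pyrophosphate, was the most abundant of them. It was read at 172, 203, 164, 161 and 194 CPM in 5XFAD and at 169.8, 155, 165, 174 and 173 CPM in 5XFAD;Neu cKO. The cKO libraries lay inside or just under the range of the controls, and the change was −0.09 (interval −0.27 to 0.09, edgeR adjusted p = 0.897). Tmem106b, a lysosomal membrane protein, was at 152 ± 14.4 CPM in 5XFAD and 162 ± 16.0 CPM in 5XFAD;Neu cKO (log2 fold change 0.10, interval −0.09 to 0.28). Abca7, a lipid transporter and relative of Abca1, had a log2 fold change of −0.12, and Abca1 itself 0.02. Slc24a4, a sodium, potassium and calcium exchanger, was at 11.1 to 16.2 CPM in 5XFAD and 10.3 to 12.5 CPM in 5XFAD;Neu cKO. Its permutation p was 0.0476 (exact, two-sided, n = 5 per group), one of 4 members under 0.05 by that test beside 6.64% of all genes, while edgeR gave an adjusted p of 0.904 for a change of −0.23. Slc24a4 is named here after its values were seen.

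Among genes of adhesion, cytoskeleton and tau, 5 of 7 were tested, with 2 estimates below 0 and 3 above. Mapt, which encodes tau, was the most abundant member of all. It was read at 462, 468, 494, 429.9 and 457 CPM in 5XFAD and at 463, 444, 428, 483 and 421 CPM in 5XFAD;Neu cKO. The 2 groups overlapped over most of their range, with a change of −0.05 and an interval of −0.20 to 0.10, the narrowest of the members. The microtubule proteins Map2 and Map4, relatives of tau, had log2 fold changes of −0.09 and 0.10. Ptk2b, a kinase of focal adhesions and synapses, was at 0.11 (interval −0.07 to 0.30), and Fermt2, an activator of integrins, at 0.03 (−0.20 to 0.26). Abi3, an actin regulator found in brain mainly in microglia, had the lowest estimate of this group at −0.56 (interval −1.33 to 0.22, edgeR adjusted p = 0.822), and −0.33 without 5XFAD replicate 1. It was read at 10.3, 9.62, 4.89, 3.36 and 4.26 CPM in 5XFAD and at 3.93, 5.33, 5.91, 4.71 and 2.01 CPM in 5XFAD;Neu cKO, so that 2 control libraries stood above all others and the rest mixed. The same 2 libraries had the highest sums of microglial markers, 846 and 842 CPM, and the part of this in the value of Abi3 was not tested. Cnn2, an actin-binding calponin, had 170 reads and an interval of −0.60 to 1.53. Cass4, a scaffold of the Cas family, had 0 reads in 57717777, which allows up to 0.0520 CPM, and Epha1, an ephrin receptor, had 2.

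**Figure D3:**
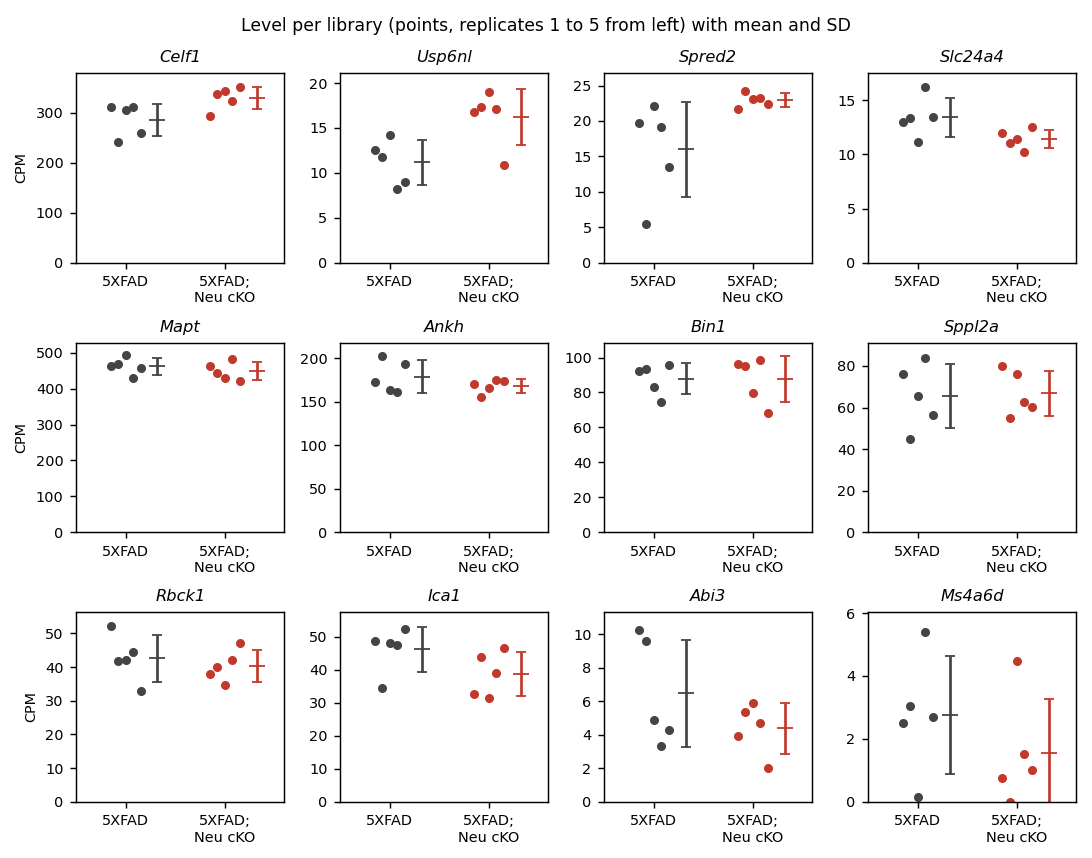
Level in CPM (y, from 0) of 12 members in each of 10 libraries, with replicates 1 to 5 from left to right in each group and the group mean ± SD beside the points (SD bars are drawn down to 0 only). The cKO points of Celf1, Usp6nl and Spred2 sit mostly above the controls, those of Mapt, Bin1, Sppl2a and Rbck1 overlap them, and 5XFAD replicate 2 is the lowest point of Spred2 at 5.40 CPM.

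Genes of the immune cell membrane and of signalling were the least read, with 5 of 8 tested. Spred2, an inhibitor of signalling from Ras to ERK, was read at 19.8, 5.40, 22.1, 19.2 and 13.5 CPM in 5XFAD and at 21.7, 24.3, 23.1, 23.2 and 22.4 CPM in 5XFAD;Neu cKO. The cKO libraries lay close together, and the controls reached from their level down to that of 5XFAD replicate 2. The means were 22.9 ± 0.969 and 16.0 ± 6.73 CPM and the change 0.50 (SE 0.22, interval 0.06 to 0.94), with an edgeR adjusted p of 0.530 (unadjusted 0.0255, exact two-sided permutation p = 0.0159, n = 5 per group). The estimate rested in part on 1 control library, since without 5XFAD replicate 2 it was 0.29 (edgeR, unadjusted p = 0.137). The relatives Spred1 and Spred3 had log2 fold changes of 0.10 (interval −0.10 to 0.30) and 0.56 (−0.11 to 1.24).

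Rbck1 and Sharpin encode partners in the complex that builds linear ubiquitin chains. Rbck1 was read at 52.1, 41.8, 42.0, 44.4 and 32.8 CPM in 5XFAD and at 37.95, 39.9, 34.7, 42.2 and 47.3 CPM in 5XFAD;Neu cKO, with ranges that overlapped and a change of −0.08 (interval −0.36 to 0.20). Sharpin was at 0.0075 (−0.45 to 0.47). Rnf31, which encodes the catalytic member of the same complex and was listed as a relative, was at 0.74 (interval −0.0016 to 1.47, edgeR adjusted p = 0.630) on 4.74 ± 2.48 CPM in 5XFAD and 7.84 ± 1.98 CPM in 5XFAD;Neu cKO.

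The myeloid members could not be resolved. Ms4a6d, a membrane protein of macrophages and microglia, was counted 13, 13, 1, 29 and 12 times in 5XFAD and 4, 0, 34, 9 and 7 times in 5XFAD;Neu cKO. A single library in each group held the most reads, and the change of −0.78 had an interval of −2.19 to 0.63. Without 5XFAD;Neu cKO replicate 3 it was −1.70 and without 5XFAD replicate 4 it was −0.38. Its relatives Ms4a6b and Ms4a6c were at −0.28 and 0.13 on fewer than 2 CPM each, Ms4a7 was at −2.005 (interval −4.62 to 0.61) on 0.951 ± 0.805 CPM in 5XFAD, and Ms4a4b, Ms4a4c and Ms4a4d had 0 reads. Blnk, an adaptor of immune receptors, was at −0.10 (interval −0.87 to 0.67). Ms4a4a had 4 reads, all in 5XFAD replicate 1, Scimp, an adaptor of Toll-like receptors, had 5, and Clnk, a relative of Blnk, had 10, all of the last 2 in 5XFAD;Neu cKO libraries. No fold is given for these.

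Genes of the extracellular matrix and of membrane proteolysis were all tested, with 3 of 5 estimates below 0 and a median of −0.02. Sppl2a, an intramembrane protease of lysosomes and endosomes, was the most abundant. It was read at 76.0, 45.0, 65.3, 84.1 and 56.6 CPM in 5XFAD and at 80.2, 55.0, 76.0, 62.8 and 60.2 CPM in 5XFAD;Neu cKO. The cKO range lay inside that of the controls, and the change was 0.03 (interval −0.23 to 0.29). Its relatives Sppl2b, Sppl3 and Hm13 were at 0.31, −0.01 and −0.13. Tspan14, a tetraspanin partner of the protease ADAM10, was at −0.12 (interval −0.55 to 0.31), the secreted metalloproteases Adamts1 and Adamts4 at −0.02 and −0.11, and Hs3st1, which sulphates heparan sulphate, at 0.35 (−0.23 to 0.93). Hs3st1 was at 0.16 without 5XFAD replicate 5 and at 0.52 without 5XFAD;Neu cKO replicate 1.

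The last group holds Celf1, which binds RNA and acts in splicing and decay of transcripts, with members of mixed or less known function. Celf1 was read at 311, 243, 307, 311 and 259 CPM in 5XFAD and at 294, 337, 344, 324 and 352 CPM in 5XFAD;Neu cKO. Replicates 2 to 5 of 5XFAD;Neu cKO exceeded every control library, and replicate 1 did not. The means were 330.2 ± 22.4 and 286 ± 32.7 CPM, a fitted ratio of 1.15 (log2 fold change 0.21, SE 0.083, interval 0.04 to 0.37), with an edgeR adjusted p of 0.471, the smallest of the members (unadjusted 0.0167, exact two-sided permutation p = 0.0476, n = 5 per group). The estimates with 1 library left out lay between 0.15 and 0.24, the lowest without 5XFAD replicate 2 (edgeR, unadjusted p = 0.0691).

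The 5 relatives of Celf1 that were listed also had estimates above 0, and none was called. Celf4, a neuronal family member, was at 940.6 ± 169 CPM in 5XFAD and 1101 ± 42.4 CPM in 5XFAD;Neu cKO (log2 fold change 0.23, edgeR adjusted p = 0.393). Celf2, Celf3, Celf5 and Celf6 were at 0.10, 0.15, 0.15 and 0.11. Among the tested members, 5XFAD replicate 2 was the lowest control for Celf1, Spred2, Sppl2a, Tspan14, Umad1, Ica1, Plekha1, Cnn2 and Zcwpw1. It was the highest control for Ankh, Adamts4 and Sharpin. Among the relatives of Celf1, it was the lowest control for Celf2, Celf3 and Celf4 and the highest for Celf5. Without this library the estimates of Celf1 and Spred2 were the lowest of the 10 fits that left out 1 library.

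Of the other members of this group, Wwox, an oxidoreductase with WW domains, was at 0.22 (interval −0.26 to 0.70) and Umad1, a gene of little known function, at 0.15 (−0.22 to 0.51). Ica1, a BAR-domain protein of secretory vesicles, was at 46.2 ± 6.83 CPM in 5XFAD and 38.6 ± 6.65 CPM in 5XFAD;Neu cKO (log2 fold change −0.26, interval −0.55 to 0.02, edgeR adjusted p = 0.690). Zcwpw1, a reader of histone marks known from meiosis, was at −0.40 (−1.18 to 0.37). Iqck, a protein with a calmodulin-binding motif, was counted 0, 2, 23, 38 and 7 times in 5XFAD and 13, 30, 15, 10 and 43 times in 5XFAD;Neu cKO. Its change was 0.51, with 0.19 when 5XFAD replicate 1 was left out and 1.38 when 5XFAD replicate 4 was.

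The 3 pairs of tested members that lie close together on a chromosome had estimates on opposite sides of 0. Cnn2 and Abca7 are 383 bases apart on the same strand of chromosome 10 (GRCm39) and were at 0.46 and −0.12. Slc24a4 and Rin3 are 13893 bases apart on chromosome 12 and were at −0.23 and 0.35, and Umad1 and Ica1, 170551 bases apart on chromosome 6, were at 0.15 and −0.26. None of these values passed the test, and a difference between neighbours was not tested. Ankh overlaps Otulin on the opposite strand of chromosome 15, and several members overlap other genes in the same way, among them Ptk2b with Chrna2, Sharpin with Maf1, Rbck1 with Tbc1d20 and Abi3 with Gngt2. The strand setting of the counting is not given in the sources used here, and reads of such pairs could be shared.

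Markers of microglia, by contrast, were lower in the same libraries. The summed level of 19 microglial markers was 593 to 846 CPM in 5XFAD and 401 to 493 CPM in 5XFAD;Neu cKO. All 19 had estimates below 0, with a median of −0.65. Of the 19, 7 fell at an edgeR adjusted p under 0.05, beside 0.161% of all genes tested. The number was 4 without 5XFAD replicate 2 or without 5XFAD;Neu cKO replicate 5. The 7 were Ctss, C1qb, C1qc, Tyrobp, Csf1r, Cx3cr1 and Laptm5. Their log2 fold changes were −0.91, −1.21, −0.82, −1.10, −0.65, −0.51 and −0.67. The paper had already reported Ctss, Csf1r and Tyrobp as lower in its bulk RNA sequencing. The marker lists were drawn up with earlier results of these data known. In bulk tissue, fewer cells of a type and less RNA per cell cannot be told apart. The intervals of 23 of the 32 tested members lay above the microglial median, and 9 intervals held it, those of Abca7, Slc24a4, Zcwpw1, Ms4a6d, Rin3, Abi3, Adamts4, Iqck and Blnk. For these 9, the data do not separate no change from a change of the size that the microglial markers showed.

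The medians of the other marker lists were nearer to 0. Gfap, a filament protein of reactive astrocytes, fell from 44.5 ± 10.4 to 24.1 ± 5.71 CPM (log2 fold change −0.88, edgeR adjusted p = 0.00202). The paper had already reported it as lower in its bulk RNA sequencing. It was the 1 marker of 10 for astrocytes that edgeR called. Of the 10, 9 had estimates below 0, with a median of −0.16. Astrocyte sums overlapped, at 4434 to 5187 CPM in 5XFAD and 4304 to 4929 CPM in 5XFAD;Neu cKO. Markers of oligodendrocytes were below 0 in 10 of 10, with a median of −0.28, none called by edgeR or DESeq2 and 6 at an unadjusted p under 0.05, and their sums were 2006 to 2962 CPM and 1814 to 2847 CPM. The sums of markers of excitatory neurons were 4240 to 5160 CPM and 4117 to 4691 CPM, those of inhibitory neurons 666 to 815 CPM and 633 to 811 CPM. Markers of perivascular macrophages and blood leukocytes summed to 7.04 to 18.7 CPM and 11.2 to 20.2 CPM, with Cd79a and Nkg7 at 0 reads. The part of these cell types in the values of the members was not tested.

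**Figure D4:**
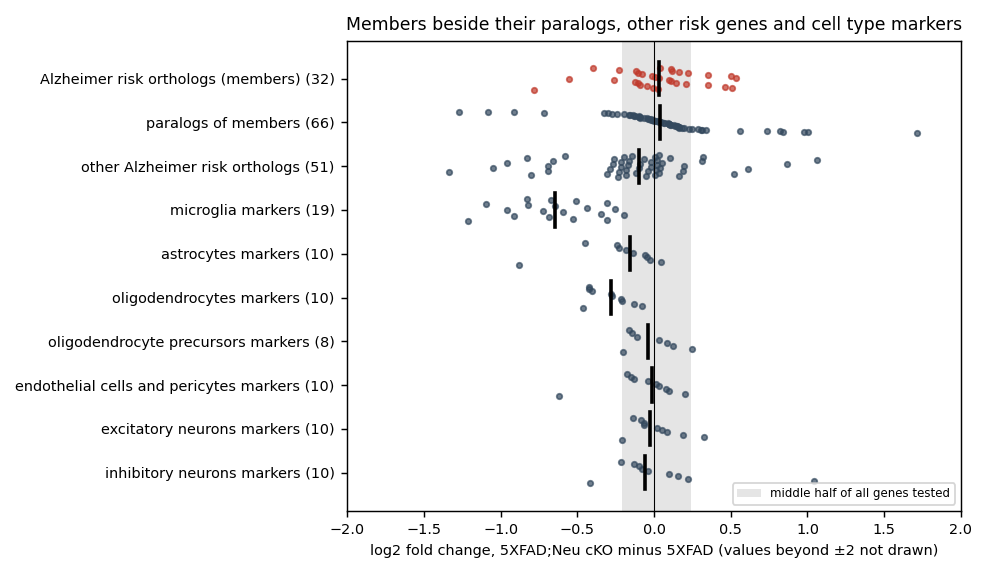
Log2 fold change (x, 5XFAD;Neu cKO minus 5XFAD) of each tested gene (points, number in brackets) in the members, their paralogs, other Alzheimer risk orthologs and cell type markers, with the median of each list as a black bar and the middle 50% of all genes tested as a grey band; 3 values beyond 2 either way are not drawn. The members centre on 0.03 and their paralogs on 0.04, and the microglial markers on −0.65.

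Related genes were read in the same fit. Of 70 listed paralogs of the members, 66 were tested, 29 with estimates below 0 and 37 above, with a median of 0.04. None was called by edgeR or DESeq2, while 4 met an unadjusted p under 0.05 (6.06%, beside 7.95% of all genes). A second list, called other Alzheimer risk orthologs here, held 55 mouse orthologs or nearest counterparts of risk and causal genes that are no members. It was drawn up from general knowledge, with earlier results of these data known, so its shares are not independent support. Of the 55, 51 were tested, 32 below 0 and 19 above, with a median of −0.10. Of the 51, 11 met an unadjusted p under 0.05 (21.6%, beside 7.95% of all genes), 9 of them lower and 2 higher. The groups did not overlap for 4 of the 51, beside 1.30% of all genes. The 1 gene called was Ctsd, beside 0.218% of all genes, and the paper had already reported it as lower in its bulk RNA sequencing. Ctsd, a lysosomal aspartic protease, fell from 351 ± 43.1 to 217 ± 17.5 CPM (log2 fold change −0.69, interval −0.86 to −0.52, edgeR adjusted p = 5.24e-07), with 306 to 397 CPM in the 5XFAD libraries and 190.0 to 234 CPM in the 5XFAD;Neu cKO libraries. That list and the microglial markers share Trem2 and Siglech. Whether the members and this second list differ was not tested.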

How the data were processed

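Total RNA of cortex was made into QuantSeq 3′ libraries. The authors trimmed the reads, aligned them to GRCm39 with STAR 2.7.3a and deposited raw counts per Ensembl gene made with HTSeq, without normalization. Summary rows (reads on no gene, 31.3% to 39.9% per library) entered neither library sizes nor tests. Symbols came from GENCODE vM39, a later release than the authors' annotation, and Ankh was matched through a RefSeq synonym. The groups were compared with edgeR 4.0.16 under R 4.3.3 (TMM, glmQLFit, glmQLFTest, genes with a total over 10, Benjamini-Hochberg over 19268 genes, threshold 0.05), after the steps were tested on simulated data. CPM used TMM sizes. Exact permutation tests compared mean log2 CPM (prior count 2) over 252 relabellings, with a smallest p of 0.00794. p-values measure the spread between libraries that the labels give as separate replicates, and no pair of libraries in a group agreed within sampling noise (smallest chi-square per degree of freedom 5.87). Same-numbered libraries of the groups did not deviate together (correlations −0.078 to 0.054).

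Values per library were given for members with an adjusted or unadjusted p under 0.05 or groups that did not overlap, and for the most abundant member of each role. Slc24a4, Abi3, Ms4a6d, Iqck and Rnf31 were detailed after their values were seen. Relatives of the members described in full, and genes of the other lists with an adjusted p under 0.05, were named. The members, the lists and the tests were chosen with earlier results of these data known. Alternatives were DESeq2 1.42.0, its size factors, a fit without mitochondrial genes, other filters, a robust fit, a block for the replicate number and fits without each library.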

Additional observations from a re-analysis of the deposited data

Results flagged for a closer look

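For each tested member and group, the lowest and the highest of the 5 libraries were compared with the nearest of the others, and 3 of 64 groups stood out by the gap as a share of the group's range. Chance gives about 1 in 20 such groups. Usp6nl was lowest in 5XFAD;Neu cKO replicate 5 at 10.9 CPM, with the next library at 16.8 CPM (gap 0.728 of the range). Snx1 was highest in 5XFAD replicate 4 at 27.2 CPM, with the next at 20.2 CPM (gap 0.726 of the range), and without that library its log2 fold change was 0.16 in place of 0.04. Ica1 was lowest in 5XFAD replicate 2 at 34.5 CPM, with the next at 47.3 CPM (gap 0.722 of the range), and without that library its log2 fold change was −0.35 (edgeR, unadjusted p = 0.0169) in place of −0.26.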

How the results depend on the processing

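No member was called under any of 17 alternatives, and the smallest adjusted p of a member was 0.218 (DESeq2, which gave no adjusted p for 19 of the 32). The number of genes called among all tested, 42, was 73 with DESeq2, 103 with no filter and 112 with the replicate block, and 26 (without 5XFAD replicate 2) to 72 (without 5XFAD;Neu cKO replicate 1) with each library left out, with 27 without 5XFAD;Neu cKO replicate 4 or 5. The replicate numbers did not pair the libraries, 1 of 10 libraries correlating best with its own number. Members with an unadjusted p under 0.05 numbered 1 (without 5XFAD replicate 5) to 4. Of the other risk orthologs 2 were called with DESeq2, no filter or a robust fit, 4 with the replicate block, and 1 to 2 with a library left out (2 without 5XFAD replicate 3 or 5 or 5XFAD;Neu cKO replicate 2). Microglial markers called numbered 4 (without 5XFAD replicate 2, and without 5XFAD;Neu cKO replicate 5) to 8 with a library left out. Oligodendrocyte markers called were 2 with no filter, 2 with the replicate block, and 0 to 2 with a library left out (1 without 5XFAD replicate 1 or 5, 2 without 5XFAD;Neu cKO replicate 1).

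Of 543 values of members compared, 513 kept their sign, and 30 in 10 members did not. Sharpin was −0.0027 with the replicate block. With a library left out, the log2 fold change of Bin1 was −0.057 to 0.073, of Abca7 −0.52 to 0.089, of Fermt2 −0.027 to 0.091, of Adamts1 −0.13 to 0.18, of Adamts4 −0.32 to 0.22, of Blnk −0.21 to 0.086, of Snx1 −0.019 to 0.16, of Sppl2a −0.078 to 0.13, of Rbck1 −0.16 to 0.0034 and of Sharpin −0.070 to 0.070. Of the 22 members that kept their sign, 18 moved by over 1.5 times without some library, and Celf1, Ica1, Ptk2b and Usp6nl did not. The cause of these changes was not tested. Depth limits the 9 members under 9 CPM most, and the 5 members with 10 reads or fewer could not be tested.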
